A study of Mus musculus with 6 samples.

Results

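The 33 genes described here encode the enzymes of glycolysis, a glucose and a lactate transporter, the oxygen-sensitive subunits of the hypoxia-inducible factors (HIF), a set of genes known to respond to hypoxia, and macrophage migration inhibitory factor (Mif). They were chosen by symbol from the 32285 genes of the count matrix, and all 33 were found. By role, 17 were glycolytic enzymes, 2 were transporters, 2 were HIF alpha subunits and 11 were hypoxia response genes, with Mif on its own. The study sequenced single cells of the cortex in a mouse model of ischemic stroke, in which the middle cerebral artery is permanently occluded (pMCAO). Cells came from either hemisphere, ipsilateral or contralateral, 1, 12 or 24 h after occlusion, which makes 6 groups with 1 library each, and its methods give 3 mice for the sequencing. All mice were C57bl/6 males aged 8 to 12 weeks and heterozygous for RGS5::GFP, a strain in which 1 allele of Rgs5 is replaced by GFP, so every group, contralateral ones included, carried 1 working copy of this pericyte gene. Mature neurons had been depleted and live cells sorted before capture. The labels give a later version of the 10× 3′ kit, with dual in place of single indexes, for the 12 h libraries than for the rest. The matrix tells the libraries apart by the numbers 1 to 6, which the sources used here do not tie to a hemisphere or a time. Each library is therefore given by its number, with no condition, and no p-value was computed.

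Glycolysis breaks glucose down to pyruvate in the cytosol, and lactate dehydrogenase turns pyruvate into lactate when oxygen is short or the pathway runs fast. Oxygen-dependent prolyl hydroxylases mark the HIF alpha subunits for destruction, so that in hypoxia HIF accumulates and raises transcription of most glycolytic enzymes, of glucose transporters and of its own hydroxylases. HIF binds DNA at a short core motif, and in the brain astrocytes are known for a strongly glycolytic metabolism while endothelial cells and mural cells carry much of the second alpha subunit, encoded by Epas1.

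The sequence before the transcription start of 4 members is shown because these genes were at least 2 times higher both in the macrophages against microglia and in a responding pericyte subcluster, the comparisons described further below, with all libraries pooled. Within library 4 or library 6 alone, Ldha and Mif did not reach 2 times in the macrophage comparison. Gapdh reached it in library 6 (2.12) but not in library 4 (1.60), and Pgk1 in both (3.60 and 2.82). In the pericyte comparison Ldha did not reach 2 times within library 6 (1.68). Each line is the 250 bases before the start in RefSeq, build GRCm38.p6, written 5′ to 3′ on the strand of the gene, and overlaps no annotated exon. Capitals mark the letters ACGTG read on either strand (ACGTG or CACGT), so that CACGTG counts on both strands. ACGTG is 1 form of the core of the hypoxia response element, and the form GCGTG was not counted. Ldha encodes the lactate dehydrogenase subunit of muscle type, and its window is chr7:46845554-46845803 on the plus strand. Pgk1 encodes phosphoglycerate kinase, with the window chrX:106186850-106187099 on the plus strand. Gapdh encodes glyceraldehyde-3-phosphate dehydrogenase, with the window chr6:125165774-125166023 on the minus strand, and Mif has the window chr10:75860278-75860527 on the minus strand.
Ldha: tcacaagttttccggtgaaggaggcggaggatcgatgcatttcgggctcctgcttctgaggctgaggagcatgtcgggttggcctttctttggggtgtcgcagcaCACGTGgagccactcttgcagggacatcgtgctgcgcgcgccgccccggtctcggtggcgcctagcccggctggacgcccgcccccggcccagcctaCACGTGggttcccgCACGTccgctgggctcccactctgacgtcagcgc
Pgk1: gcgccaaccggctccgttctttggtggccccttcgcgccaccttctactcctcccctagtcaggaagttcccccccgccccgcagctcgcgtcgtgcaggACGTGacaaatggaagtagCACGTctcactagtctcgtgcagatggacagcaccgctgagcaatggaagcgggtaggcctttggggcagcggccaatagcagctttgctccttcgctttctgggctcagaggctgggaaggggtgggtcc
Gapdh: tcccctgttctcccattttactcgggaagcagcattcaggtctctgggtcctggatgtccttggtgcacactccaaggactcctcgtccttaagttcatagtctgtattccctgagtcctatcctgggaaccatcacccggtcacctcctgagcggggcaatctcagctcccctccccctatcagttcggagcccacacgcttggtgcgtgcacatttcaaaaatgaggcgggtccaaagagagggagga
Mif: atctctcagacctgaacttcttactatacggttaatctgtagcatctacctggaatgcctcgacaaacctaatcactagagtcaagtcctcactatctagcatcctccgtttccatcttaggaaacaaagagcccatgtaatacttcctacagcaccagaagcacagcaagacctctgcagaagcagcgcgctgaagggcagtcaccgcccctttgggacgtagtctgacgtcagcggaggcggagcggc
The Ldha window held 5 matches in 3 runs, the nearest 34 bases before the start, and the window of a second Ldha start, not shown, held 0. The Pgk1 window held 2, at 150 and 131 bases, and the Gapdh and Mif windows held 0 matches to ACGTG. The Gapdh window does hold the uncounted form, as GCGTG and as CACGC. The fifth such gene, Pkm, is named only, since its windows overlap an exon. Of the 30 members found in the RefSeq table, 16 (53.3%) had a match in at least 1 window, against 4998 of 27025 genes (18.5%) in the whole table. The hypoxia response genes had it in 7 of 10 (70.0%) and the enzymes in 7 of 17 (41.2%). Slc2a3, Epas1 and Ndrg1 were not matched in this table. A match of 5 letters is a description of the sequence, not a binding site.

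After filtering, 17328 cells remained, with 1221 to 5869 cells and a median of 5052 to 5660.5 UMIs per cell in a library. A UMI tags 1 captured RNA molecule, and levels are given as UMIs per 1000000 UMIs of the cells summed (CPM) with exact 95% Poisson intervals, which cover counting error only. Clusters were named from marker genes, without the members among the genes that defined them, and 12 classes with at least 50 cells were compared, from 8122 microglia-like cells to 55 B lymphocyte-like cells. Depth differed between classes, with a median of 2988 UMIs in B lymphocyte-like and 8872 in oligodendrocyte-like cells. The median mitochondrial share was 3.83% and 3.37% in libraries 1 and 2 and between 1.13% and 2.5% in the others, and its part in the results was not tested. The perivascular macrophage-like cluster is the least certain, since all 7 of its markers were raised but class II antigen genes (Cd74, H2-Eb1, H2-Aa) led it, and with the study's filters alone it parted into 176 cells of that name and 140 unnamed ones. Libraries shared 26 of 17302 barcodes (0.150%). Since each UMI is read near the 3′ end of a transcript, levels of a gene do not scale with its length, but capture differs between genes. Several members, Gapdh and Mif among them, have processed copies in the genome, and reads that fit a copy equally well would be lost to the gene.

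The glycolytic enzymes were highest in monocyte-derived macrophage-like cells and in astrocyte-like cells, and the hypoxia response genes in endothelial-like and oligodendrocyte-like cells. Summed over the 17 enzymes, macrophage-like cells held 9319 CPM [9216 to 9422] and astrocyte-like cells 7908 CPM [7844 to 7973]. Neutrophil-like cells followed with 5000.5 CPM and perivascular macrophage-like cells with 4244 CPM, pericyte-like cells with 4139.9 CPM and microglia-like cells with 3702 CPM. At the other end, neuroblast-like cells held 2512 CPM, T lymphocyte-like cells 2438 CPM and B lymphocyte-like cells 1512 CPM. The 2 leading classes were built from different enzymes, with Aldoc making up 39.8% of the astrocyte-like sum and Gapdh 33.6% and Pkm 18.4% of the macrophage-like sum. Without Gapdh the order of these 2 turned, with astrocyte-like cells at 6661 CPM and macrophage-like cells at 6188 CPM. It also turned within library 4, with 6808 CPM in macrophage-like and 8414 CPM in astrocyte-like cells, a ratio of 0.809 [0.787 to 0.831], and held within library 6, with 10820.4 and 8058 CPM. No order of these 2 classes is therefore drawn from the pooled sums. Aldoc alone was at 3149 CPM in astrocyte-like cells, and no sum was computed without it. The place of astrocyte-like cells above neutrophil-like cells may therefore rest on this gene. The 11 hypoxia response genes reached 1658 CPM in endothelial-like and 1652 CPM in oligodendrocyte-like cells, a ratio of 1.00 [0.986 to 1.02]. This evenness came from the pool, since the ratio was 1.46, 1.54, 0.891, 1.09, 1.06 and 0.848 in libraries 1 to 6, with every interval on 1 side of 1. Microglia-like cells came next with 808 CPM, and B lymphocyte-like cells were lowest with 278 CPM. Again the make-up differed, since Ndrg1 was 63.8% of the oligodendrocyte-like sum and 39.9% of the endothelial-like sum, whereas P4ha1 (43.7%) and Ddit4 (31.3%) led in microglia-like cells. Barcodes with 1 to 50 UMIs, which hold free RNA, had 3497 CPM of the enzymes and 980.0 CPM of the hypoxia response genes.

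**Figure D1:**
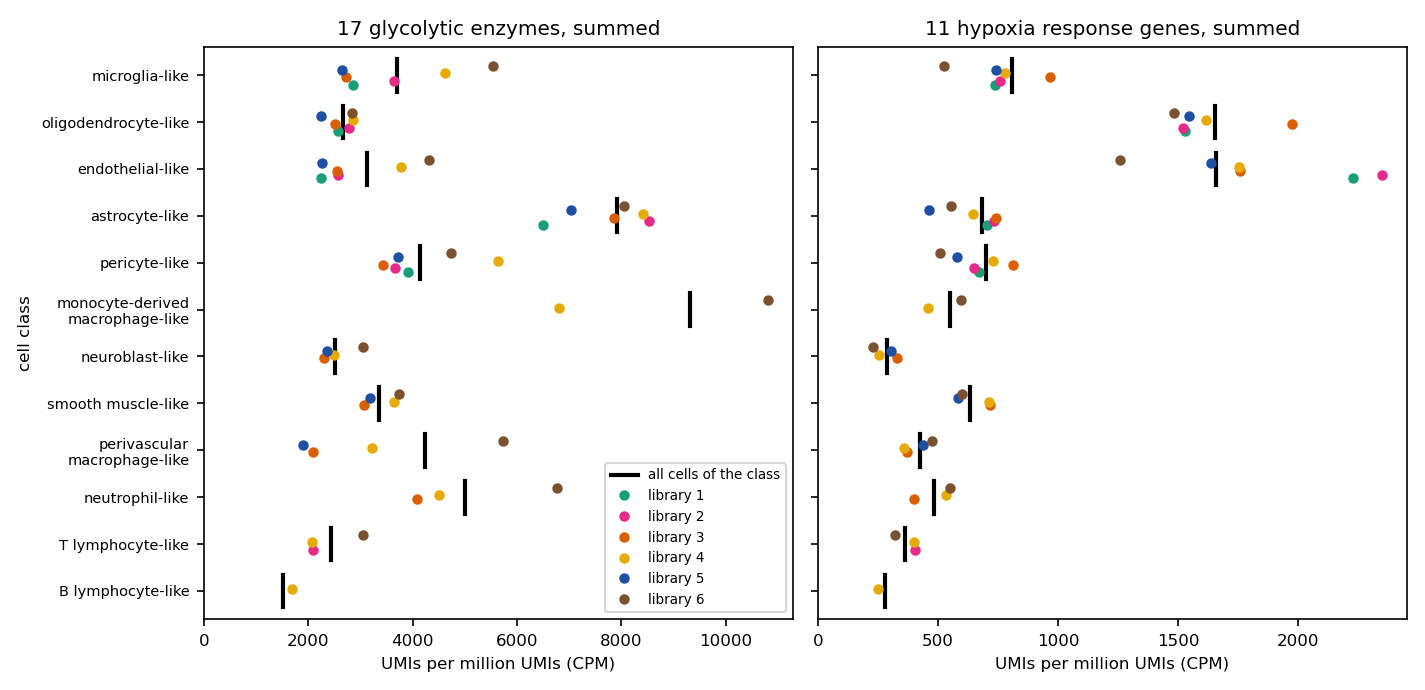
Summed CPM (horizontal axes, starting at 0) of the 17 glycolytic enzymes and the 11 hypoxia response genes in 12 cell classes. Black bars are all cells of a class, and points are single libraries with at least 20 cells of it. Macrophage-like (9319 CPM) and astrocyte-like cells (7908 CPM) lead on the left, endothelial-like (1658 CPM) and oligodendrocyte-like cells (1652 CPM) on the right.

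With all libraries pooled, 10 of the 33 members were highest in macrophage-like cells, 8 in endothelial-like, 6 in astrocyte-like, 4 in microglia-like, 3 in neutrophil-like and 2 in oligodendrocyte-like cells. The share of all genes that were highest in each class was not computed, so these counts are not read as a trait of the members. Some of these leads turned within library 4, where macrophage-like cells held 302 CPM of Gpi1 and both astrocyte-like clusters more (405 and 353 CPM). There they also held less Aldoa (878 CPM) and Tpi1 (306 CPM) than pericyte-like cells outside the responding subcluster (939.8 and 399 CPM). Within library 6 they held more of both (Aldoa 1345 and 957 CPM, Tpi1 500.0 and 238 CPM). For 8 members (Hk1, Pfkl, Eno2, Egln1, Egln3, Pdk1, P4ha2 and Kdm3a) the interval of the ratio of the first to the second class included 1, so these leads are not beyond counting error. Among the enzymes, the first step is taken by the hexokinases, of which Hk1 was highest in astrocyte-like cells (68.7 CPM) and lowest in B lymphocyte-like cells (11.1 CPM). Hk2 was highest in microglia-like cells (386 CPM), 1.79 times [1.66 to 1.93] the macrophage-like level of 215 CPM, and lowest in endothelial-like cells (4.64 CPM). Gpi1, the isomerase after them, ranged from 375 CPM in macrophage-like to 95.9 CPM in neuroblast-like cells.

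Phosphofructokinase commits sugar to glycolysis, and its subunits were distributed unequally. Pfkp was 236 CPM in astrocyte-like, 141 CPM in perivascular macrophage-like and 1.60 CPM in microglia-like cells, while Pfkl ranged from 97.7 CPM in endothelial-like to 16.7 CPM in B lymphocyte-like cells. Pfkfb3 makes the activator of phosphofructokinase and was highest in microglia-like (139 CPM) and neutrophil-like cells (108 CPM), against 6.12 CPM in T lymphocyte-like cells. The aldolases showed the sharpest contrast of the set. Aldoc was at 3149 CPM [3109 to 3191] in astrocyte-like cells, 130.3 times [120.3 to 141] the next level, 24.2 CPM in oligodendrocyte-like cells. Free RNA held 407 CPM of it, and the 22 choroid plexus-like cells, too few to compare, 234 CPM. Across libraries 1 to 6, astrocyte-like cells held 2594, 3271, 3275, 3195, 3104 and 3189.6 CPM of Aldoc, so the level was much the same in every library, lowest in library 1. Aldoa ranged from 1166 CPM in macrophage-like and 909 CPM in pericyte-like cells to 122 CPM in neuroblast-like cells.

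With all libraries pooled, the enzymes from triose phosphate to pyruvate were led by macrophage-like cells, apart from the enolases. Tpi1 (428 CPM), Gapdh (3131 CPM), Pgk1 (616 CPM), the mutase gene Pgam1 (434 CPM) and the pyruvate kinase gene Pkm (1719 CPM) were all highest there. Their lowest levels were 66.7, 450.2, 108, 61.1 and 111 CPM, all in B lymphocyte-like cells apart from Pgk1, which was lowest in endothelial-like cells. Pgk1 led by most, at 2.84 times [2.40 to 3.38] the 217 CPM of neutrophil-like cells, and Gapdh was 2.02 times [1.95 to 2.10] the 1548 CPM of perivascular macrophage-like cells. The enolase gene Eno1 was at 284 CPM in astrocyte-like and 241 CPM in macrophage-like cells and 44.0 CPM in oligodendrocyte-like cells. Eno1 is uncertain because of its near-identical copy Eno1b. The neuronal enolase Eno2 was low in every class, at most 7.01 CPM in oligodendrocyte-like cells, with 0 UMIs in B lymphocyte-like cells. At the last step Ldha was highest in macrophage-like (652 CPM) and endothelial-like cells (488 CPM) and lowest in oligodendrocyte-like cells (67.0 CPM). Ldhb, the heart type subunit, was highest in astrocyte-like (741 CPM) and microglia-like cells (361 CPM) and lowest in perivascular macrophage-like cells (16.4 CPM).

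**Figure D2:**
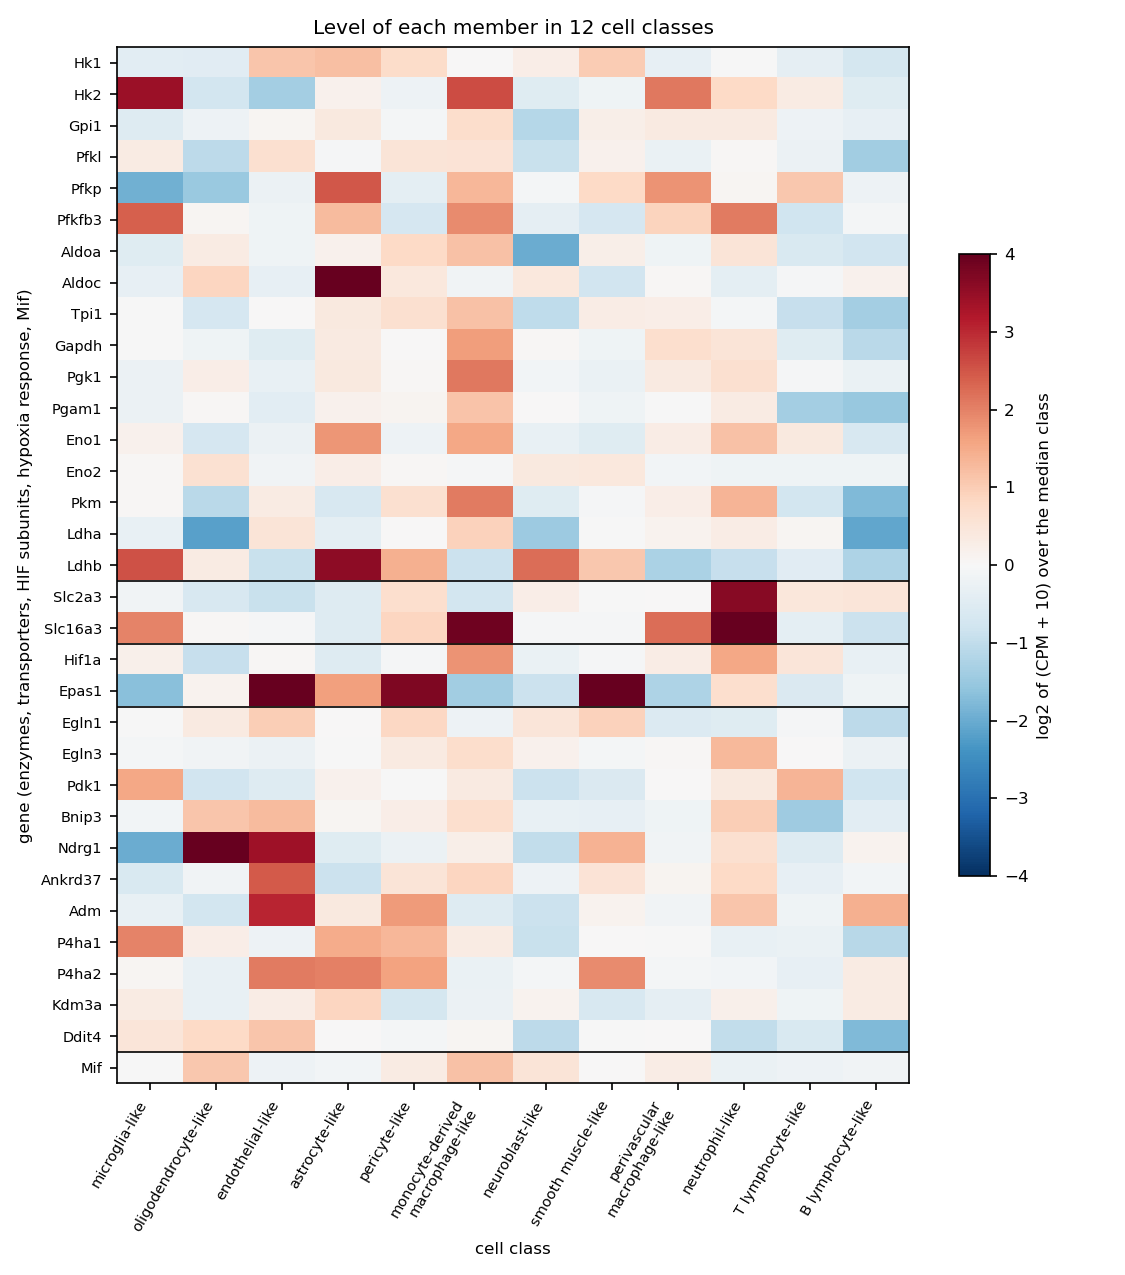
Each row is a member and each column a cell class, and colour is the log2 of CPM plus 10 over the median of the 12 classes, with differences beyond the ends of the scale drawn at its ends. Lines part enzymes, transporters, HIF subunits, hypoxia response genes and Mif. Aldoc stands out in astrocyte-like cells (3149 CPM), Epas1 and Adm in endothelial-like cells (959 and 139 CPM), Slc2a3 and Slc16a3 in neutrophil-like cells (226 and 639 CPM).

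Related genes of the same step were compared by the share of UMIs that the first of a pair takes. These shares are compared between classes for the same pair, with exact 95% binomial intervals, and are not read as shares of protein. Of the UMIs of Ldha and Ldhb together, Ldha took 95.3% [94.8 to 95.9] in endothelial-like cells and 96.3% [95.5 to 97.1] in macrophage-like cells. The share was 42.9% [42.3 to 43.4] in microglia-like, 28.5% [25.9 to 31.3] in neuroblast-like and 25.7% [24.7 to 26.7] in astrocyte-like cells. The microglia-like value mixed 59.1% and 64.9% in libraries 4 and 6 with 25.8% to 33.3% in the others. The astrocyte-like share ran from 13.1% in library 2 to 35.2% in library 4. Endothelial-like and monocyte-derived macrophage-like cells thus held almost only Ldha transcripts of the pair, and the astrocyte-like and neuroblast-like classes mainly Ldhb transcripts. In perivascular macrophage-like cells the share was 95.8% in the pool. It was 98.3% and 97.2% in libraries 4 and 6 and 83.3% and 83.8% in libraries 3 and 5. Hk2 took 96.2% [95.9 to 96.4] of the hexokinase pair in microglia-like cells and 6.90% [5.22 to 8.90] in endothelial-like cells. Pfkp took 80.4% [78.6 to 82.0] of its pair with Pfkl in astrocyte-like cells, 74.6% [70.3 to 78.5] in perivascular macrophage-like cells and 2.04% [1.60 to 2.56] in microglia-like cells. The perivascular macrophage-like value varied with the library, from 42.9% in library 5 to 81.9% in library 4. Aldoc took 84.6% [84.1 to 85.0] of the aldolase pair in astrocyte-like cells and at most 10.9% [7.96 to 14.5], in neuroblast-like cells, in the other 11 classes compared. Within the myeloid classes the isozymes were not shared evenly, since macrophage-like cells held 51.9% [48.0 to 55.8] Pfkp where microglia-like cells held mainly Pfkl. The macrophage-like share was 65.2% in library 4 and 44.5% in library 6.

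**Figure D3:**
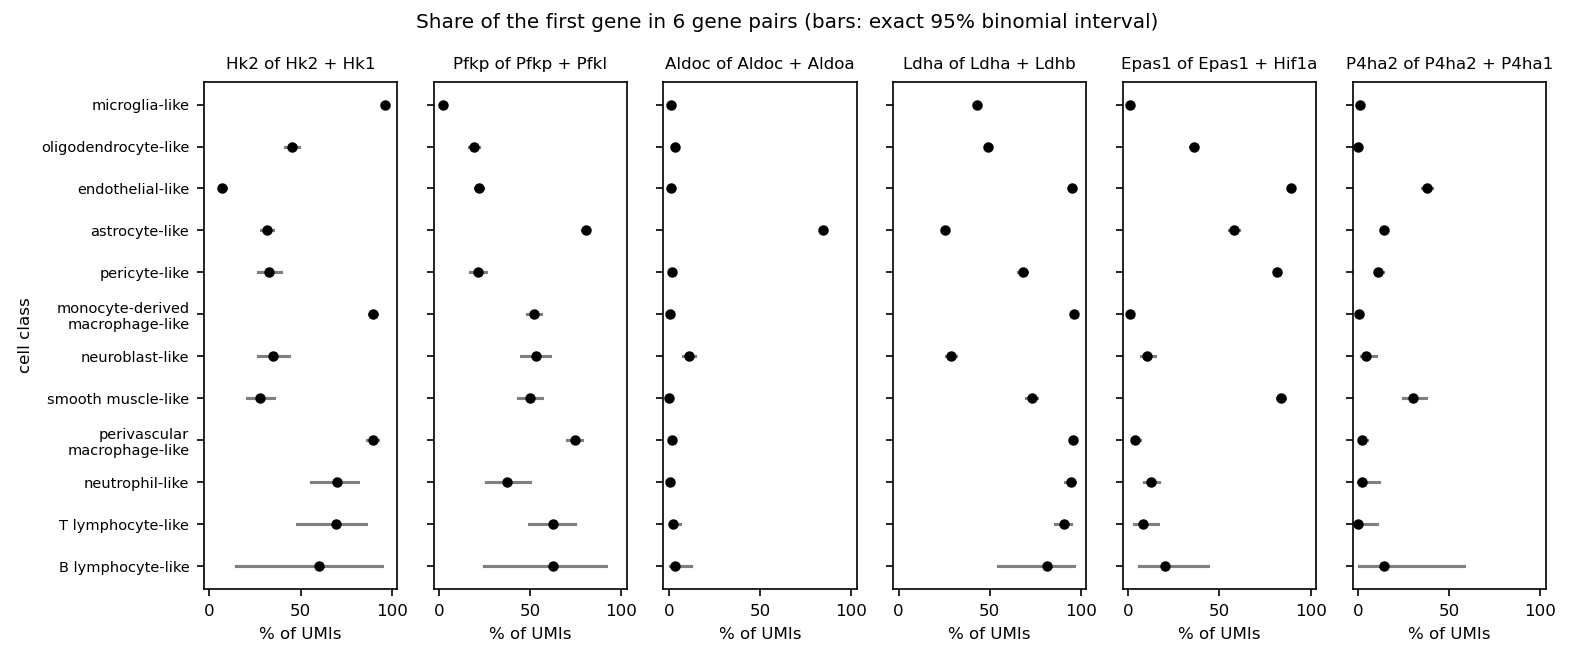
Points give the percentage of UMIs of a gene pair that belong to the first gene in each class, and grey bars the exact 95% binomial interval. The Ldha share lies at 95.3% in endothelial-like and 25.7% in astrocyte-like cells, the Epas1 share at 89.3% in endothelial-like and 1.11% in microglia-like cells.

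Both transporters were highest in neutrophil-like cells. Slc2a3, which encodes the high-affinity glucose transporter GLUT3, was at 226 CPM [191 to 264] there, 11.1 times [8.32 to 15] the 20.3 CPM of pericyte-like cells, and at 0.258 CPM in endothelial-like cells. In the libraries with at least 20 neutrophil-like cells it was 250.2 CPM in library 3, 242 CPM in library 4 and 115 CPM in library 6, all above the pooled level of any other class. Slc16a3, the lactate exporter MCT4, was at 639 CPM in neutrophil-like cells, 264 CPM in macrophage-like cells and 62.0 CPM in microglia-like cells, with 0 UMIs in B lymphocyte-like cells. From the other transporters on the pathway list, Slc2a1 (GLUT1) was at 3705 CPM [3669.8 to 3739.9] in endothelial-like cells and Slc2a5 at 233 CPM in microglia-like cells.

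Of the HIF alpha subunits, Epas1 was highest in the vascular classes and Hif1a in myeloid ones, with the other classes between. Epas1 was at 959 CPM [942 to 977] in endothelial-like, 569.6 CPM in smooth muscle-like and 477 CPM in pericyte-like cells, and at 1.47 CPM in microglia-like cells. Libraries 1 to 6 held 904, 908, 1154, 837, 1064 and 770.4 CPM of Epas1 in endothelial-like cells, all of them above the smooth muscle-like level. Hif1a was highest in macrophage-like (417 CPM) and neutrophil-like cells (346 CPM) and lowest in oligodendrocyte-like cells (54.5 CPM). As a share of both subunits, Epas1 took 89.3% [88.7 to 89.8] in endothelial-like, 83.9% [81.7 to 85.9] in smooth muscle-like and 58.0% [55.3 to 60.7] in astrocyte-like cells. It took 1.11% [0.858 to 1.41] in microglia-like and 0.915% [0.488 to 1.56] in macrophage-like cells, the low end of the 12 classes, with 35.8% in oligodendrocyte-like, 12.3% in neutrophil-like and 10.2% in neuroblast-like cells between them.

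Among the hypoxia response genes, Ndrg1 was high in a pair of classes and Ankrd37 and Adm in endothelial-like cells. Ndrg1, a stress-response gene also active in myelinating cells, was at 1053 CPM in oligodendrocyte-like and 661 CPM in endothelial-like cells and at 6.40 CPM in microglia-like cells. Ankrd37, a small HIF target, was at 113 CPM in endothelial-like cells, 3.61 times [2.96 to 4.45] the macrophage-like level of 31.4 CPM, and at 2.63 CPM in astrocyte-like cells. Adm, the vasodilator peptide adrenomedullin, was at 139 CPM in endothelial-like cells, 2.87 times [2.44 to 3.39] the 48.6 CPM of pericyte-like cells, with 0 UMIs in neuroblast-like cells. Endothelial-like cells also led for Bnip3, a mitophagy receptor gene (94.1 CPM, lowest 6.12 CPM in T lymphocyte-like cells), and Ddit4, an mTOR inhibitor gene (391 CPM, lowest 44.5 CPM in B lymphocyte-like cells). They led, too, for the HIF prolyl hydroxylase gene Egln1 (99.6 CPM, lowest 16.7 CPM in B lymphocyte-like cells) and for P4ha2 (42.3 CPM, 0 UMIs in T lymphocyte-like cells), which encodes a collagen prolyl hydroxylase subunit. Its relative P4ha1 was instead highest in microglia-like (353 CPM) and astrocyte-like cells (248 CPM) and lowest in B lymphocyte-like cells (33.4 CPM).

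The remaining response genes were low. Pdk1, which encodes a kinase that inhibits pyruvate dehydrogenase, ranged from 68.8 CPM in microglia-like to 4.76 CPM in neuroblast-like cells. Kdm3a, a histone demethylase gene, ranged from 61.0 CPM in astrocyte-like to 13.7 CPM in pericyte-like cells. The hydroxylase gene Egln3 was highest in neutrophil-like cells (19.1 CPM from 13 UMIs) with 0 UMIs in B lymphocyte-like cells. Mif, a cytokine and tautomerase gene, was spread most evenly of the abundant members, from 548 CPM in macrophage-like and 506 CPM in oligodendrocyte-like cells to 192 CPM in neutrophil-like cells.

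For counts, a gene was called when CPM plus 10 was at least 2 times higher or lower than the median of the other classes, among the 3620 genes, 22 of them members, with at least 50 CPM over all cells. Macrophage-like cells had 11 of the 22 members at least 2 times higher, against 12.5% of all genes. These were Hk2, Pfkfb3, Aldoa, Tpi1, Gapdh, Pgk1, Pgam1, Eno1, Pkm, Hif1a and Mif, and the median member was 1.04 above the other classes on the log2 scale where the median gene was -0.22. Astrocyte-like cells had 6 (Pfkfb3, Aldoc, Eno1, Ldhb, Epas1 and P4ha1) against 15.1% of all genes, and neutrophil-like cells 5 (Pfkfb3, Eno1, Pkm, Hif1a and Bnip3) against 12.6%. Endothelial-like cells had 5 (Epas1, Egln1, Bnip3, Ndrg1 and Ddit4) against 15.3%, none of them an enzyme. In microglia-like cells the 4 members called (Hk2, Pfkfb3, Ldhb and P4ha1) were a share near the background of 21.1%, and so were the 3 of oligodendrocyte-like cells (Bnip3, Ndrg1 and Mif) beside 18.9%. Some members passed the level of 50 CPM only through the class they were called in, which fixed the call: Aldoc in astrocyte-like, Epas1 and Bnip3 in endothelial-like, Hk2 and Pfkfb3 in microglia-like and Bnip3 in oligodendrocyte-like cells. On the low side, B lymphocyte-like cells had 10 members at least 2 times lower, 7 of them enzymes (Pfkl, Tpi1, Gapdh, Pgam1, Pkm, Ldha and Ldhb), against 14.4% of all genes, in a class of 55 cells. Neuroblast-like cells had 6 (Gpi1, Aldoa, Tpi1, Ldha, Ndrg1 and Ddit4) against 10.4%.

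Macrophage-like cells, 375 cells of which 122 were in library 4 and 235 in library 6, held more transcripts of nearly the whole lower pathway than microglia-like cells. Of the 19 members with at least 50 CPM over both classes together, 12 were at least 2 times higher in macrophage-like cells (Gpi1, Aldoa, Tpi1, Gapdh, Pgk1, Pgam1, Eno1, Pkm, Ldha, Slc16a3, Hif1a and Mif), against 9.13% of 3296 genes. Lower by as much were 3 (Ldhb, Pdk1 and P4ha1), against 31.5% of genes, and the median log2 difference was 1.22 over the members and -0.51 over all genes. Ldhb (24.9 and 361 CPM) and Pdk1 (24.6 and 68.8 CPM) passed the level of 50 CPM only through microglia-like cells, which fixed these calls. The ratio of the summed enzymes was 2.52 [2.49 to 2.55]. It was 1.47 [1.44 to 1.51] within library 4 (6808 and 4621 CPM) and 1.95 [1.92 to 1.99] within library 6 (10820.4 and 5539 CPM), so the pooled ratio also holds the difference between libraries. The microglia-like cells were not uniform. Their clusters 6 and 11, described below, held 6844 CPM in library 4, close to the macrophage-like 6808 CPM, and 6425 CPM in library 6. In library 4 those clusters also matched macrophage-like cells in Pkm (1189 and 1195 CPM) and held more Mif (677 and 343 CPM). Of the 12 members called in the pool, 4 were still at least 2 times higher within library 4 (Pgk1, Eno1, Slc16a3 and Hif1a), and 8 within library 6 (those 4 with Aldoa, Gapdh, Pgam1 and Pkm).

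Both abundant and scarce members differed. Pkm was 4.15 times higher [4.03 to 4.28] in the pool, 1.86 times in library 4 (1195 and 641 CPM) and 2.26 times in library 6 (2034 and 902 CPM). Pgk1 was 5.42 times higher [5.15 to 5.70], with 2.82 in library 4 and 3.60 in library 6, and Hif1a 3.18 times [3.0 to 3.37], with 2.33 and 3.5. Pfkp differed by most, 62.1 times [48.0 to 81.3], and hardly changed within library 4 (47.0) or library 6 (46.6). Slc16a3 was 4.26 times higher [3.95 to 4.6], with 3.02 and 2.30, and Gapdh 3.25 times [3.18 to 3.32], with 1.60 and 2.12. Of the members with little signal in either class, Ndrg1 was at 66.3 and 6.40 CPM, Ankrd37 at 31.4 and 5.0 CPM and Egln3 at 9.17 and 1.25 CPM. Ldhb went the other way, at 0.0688 times [0.0549 to 0.0853] the microglia-like level, as did Hk2 at 0.558 times [0.517 to 0.601]. Mif was 2.36 times higher in the pool, 0.924 times [0.830 to 1.03] in library 4 and 1.64 times in library 6, below 2 times in both. The hypoxia response genes as a sum were lower in macrophage-like cells, at 0.678 [0.647 to 0.710] of the microglia-like level. This was 0.589 [0.537 to 0.644] in library 4, and in library 6 the direction turned, with a ratio of 1.13 [1.06 to 1.21]. Ddit4, at 0.740 in the pool, was 2.02 times higher [1.78 to 2.27] in library 6.

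Of 43 further pathway genes in the matrix, 7 had at least 50 CPM over both classes. Slc2a1, Higd1a and Mxi1 were at least 2 times higher in macrophage-like cells, and the fructose transporter gene Slc2a5 was lower. The lipid droplet gene Hilpda passed the level of 50 CPM only through macrophage-like cells, so that its difference was fixed by the filter. It was at 992 CPM in macrophage-like and 29.3 CPM in microglia-like cells. Microglial markers summed to 641 CPM in macrophage-like and 18034 CPM in microglia-like cells, markers of monocyte-derived macrophages to 6952 and 29 CPM, and the median depth was 8830.0 and 5149.5 UMIs. All 8 markers of each list were detected in both classes.

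Within a class, libraries were compared where each of the 6 had at least 20 cells, which held for 5 classes. A gene was counted when its highest library was at least 2 times its lowest on CPM plus 10, among genes with at least 50 CPM in the class. Microglia-like cells had 12 of 19 members past this, against 20.1% of genes, and endothelial-like cells 12 of 21 against 24.0%. Oligodendrocyte-like cells had 4 of 16 (Ldha, Egln1, P4ha1 and Ddit4) against 7.38%, astrocyte-like cells 8 of 21 against 28.4% and pericyte-like cells 7 of 17 against 38.2%. These spreads include the counting error of the smaller libraries. The level of 50 CPM was taken over all libraries of a class, so a member can pass it only through the libraries where it is high. Slc16a3 in microglia-like, Ldha in oligodendrocyte-like and Adm in endothelial-like cells were below 50 CPM in several libraries and may have been counted that way. The other members were not checked for this.

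In microglia-like cells the enzymes were highest in libraries 4 and 6. Their sum was 2855, 3650.3, 2719.8, 4621, 2639 and 5539 CPM in libraries 1 to 6, with 2.10 times [2.06 to 2.14] between the highest and the lowest. Pkm spanned most, at 202, 244, 175, 641, 156 and 902 CPM, a ratio of 5.79 [5.36 to 6.26]. Slc16a3 (34.0, 62.5, 29.8, 102, 20.8 and 106 CPM), Mif (121, 169.8, 118, 372, 93.9 and 411 CPM), Pgk1 (55.8, 80.2, 60.4, 182, 51.8 and 191 CPM) and Gapdh (619, 825, 601, 1243, 606 and 1788 CPM) had the same 2 libraries on top. Of all genes with at least 50 CPM in this class, 28.7% were highest in library 6 and 14.5% in library 4. Of the 19 members at that level, 10 were highest in library 6 and 2 in library 4. Not all members were raised in these 2 libraries. Ldhb was lowest in libraries 6 (210.2 CPM) and 4 (277 CPM) and 408 to 515 CPM in the others, and Ddit4 fell to 104 CPM in library 6 against 206 to 337 CPM elsewhere.

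The make-up of the microglia-like cells also differed between libraries. Clusters 6 (led by Spp1, Lpl and Mmp12) and 11 (with Ccl12 and Gpr84 among its leading genes) held 1395 cells, 782 of them in library 4 and 569 in library 6. They were 35.5% of the microglia-like cells of library 4, 57.4% of those of library 6 and 0.623% to 1.62% in the others. The enzymes summed to 6593 CPM in these clusters and 2817 CPM in the 5949 cells of clusters 0, 1 and 3, led by P2ry12, a ratio of 2.34 [2.32 to 2.36]. It was 2.37 [2.33 to 2.42] within library 4 and 1.86 [1.81 to 1.91] within library 6. Pkm was 6.2 times higher there (1158 and 187 CPM), Mif 5.09 times (599 and 118 CPM), Slc16a3 4.87 times (156 and 32.1 CPM) and Pgk1 4.78 times (289.7 and 60.6 CPM). Within library 6 these were 4.16, 3.43, 2.81 and 4.28 times. Lower in them were Ddit4 (0.221 times, 72.9 and 329 CPM) and Ldhb (0.35 times, 153 and 437 CPM), and the hypoxia response genes as a sum (0.590 times, 549.5 and 932 CPM). Hk2, the hexokinase of microglia, was close to level at 1.13 times [1.09 to 1.17]. Among the P2ry12-led clusters alone the highest library exceeded the lowest by 1.33 times in the summed enzymes, against 2.10 in all microglia-like cells. Microglia-like clusters 9 and 24 were in neither group. The part of the make-up in the library differences was not tested.

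In endothelial-like cells the enzymes and Ndrg1 had different orders of libraries. The enzymes summed to 2249, 2562, 2546, 3786, 2271 and 4323 CPM in libraries 1 to 6, again highest in 4 and 6. The hypoxia response genes summed to 2229.7, 2347, 1756, 1755, 1638 and 1257 CPM, highest in libraries 1 and 2 and lowest in 6, with 1.87 times [1.76 to 1.98] between the extremes. Ndrg1, which makes up 39.9% of that sum over all cells, was also highest in libraries 2 and 1 and lowest in 6, at 1216, 1368, 685, 532, 749 and 379 CPM, but library 5 stood higher in the order of Ndrg1 than in that of the sum. Without library 6 the spread of the sum was 1.43 times. Adm had another order and the widest spread of the 21 members with at least 50 CPM in this class. It was at 32.6, 145, 44.4, 353, 44.4 and 204 CPM, a ratio of 10.8 [6.88 to 18.1]. Adm was thus high in libraries 4 and 6, but also in library 2. In the other libraries it was below 50 CPM. It may therefore have passed that level only through the libraries where it was high, which would favour a wide spread.

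Cluster 10, led by Ctla2a and Tmem252, held 564 endothelial-like cells, of which 192 were in library 4 and 322 in library 6. Against the largest endothelial-like cluster it had Adm 6.85 times higher [6.13 to 7.65], at 414 and 60.4 CPM. The Adm ratio differed between libraries, with 13.4 in library 4 (749.5 and 55.9 CPM) and 3.96 [3.11 to 5.11] in library 6 (303 and 76.4 CPM). Gapdh was 3.71 times higher [3.54 to 3.88], at 1556 and 419 CPM, with 2.78 in library 4 and 3.41 in library 6. Pfkfb3 (33.5 and 7.18 CPM) and Slc16a3 (18.9 and 3.52 CPM) were higher too in the pool and in library 4, but their intervals included 1 in library 6. The enzymes as a sum were 2.03 times higher [1.99 to 2.07], with 1.83 in library 4 and 1.90 in library 6. Epas1 was 0.559 times as high (563 and 1008 CPM) and Ndrg1 0.431 times (347 and 805 CPM), which was 0.698 times in library 4 and 0.405 times in library 6.

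In astrocyte-like cells the enzymes differed more between the 2 clusters than between libraries. They summed to 6493, 8539, 7852, 8414, 7038 and 8058 CPM in libraries 1 to 6, a spread of 1.32 times [1.27 to 1.36]. Cluster 8, led by Slc1a2, Clu and Mt3, held 9628 CPM and cluster 12, led by Slc1a2, Dclk1 and Gria2, held 3037 CPM, a ratio of 3.17 [3.08 to 3.26], with median depths of 6664 and 3552 UMIs. Aldoc was 3943 and 901 CPM and Ldhb 919 and 236 CPM in them, while Ndrg1 was 11.1 and 107 CPM, the opposite order. As a sum, the hypoxia response genes were 691 and 660.5 CPM in the clusters and 463 to 741 CPM over the libraries. In cluster 12 the markers of oligodendrocytes had the next highest score, and 5.90% of its cells were called doublets against 2.83% in cluster 8, whose part in this difference was not tested.

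In oligodendrocyte-like cells the sums varied little, with the enzymes at 2239 to 2864 CPM and Ndrg1 at 959 to 1139.7 CPM over the libraries. Ldha had the widest spread of the 16 members with enough counts, at 25.4, 43.2, 59.4, 136, 27.7 and 73.2 CPM, 5.35 times [4.36 to 6.62] from library 1 to library 4. Cluster 20, led by Il33, Cldn11 and Ptgds, consisted of 131 cells, 88 in library 4 and 43 in library 6 with 0 in the others. Its Ldha level was 339.7 CPM [309 to 372] against 51.9 CPM in the other oligodendrocyte-like clusters, 6.55 times higher [5.87 to 7.30]. Within library 4 the levels were 391 and 89.5 CPM, 4.37 times [3.79 to 5.03], and within library 6 they were 233 and 35.7 CPM, 6.53 times [4.74 to 9.04]. Ndrg1 was 0.510 times as high in it, 0.647 times in library 4 and 0.289 times in library 6, and Ddit4 was 0.271 times as high.

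**Figure D4:**
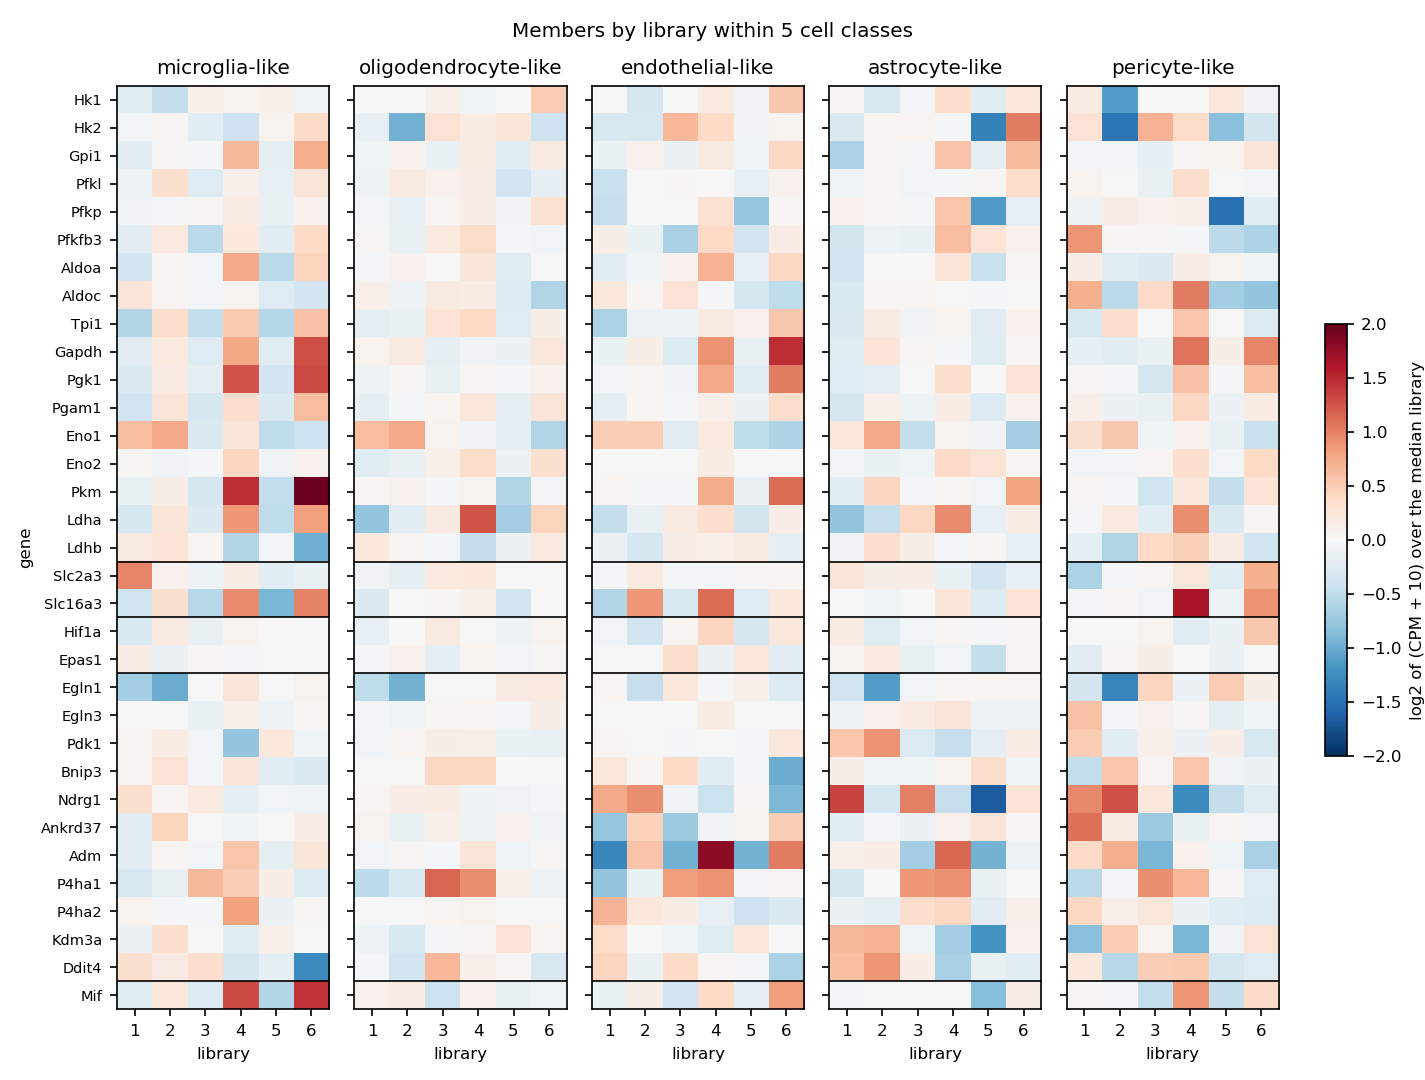
Colour is the log2 of CPM plus 10 in a library over the median of the 6 libraries, for each member (rows) within 5 cell classes (panels), with differences beyond the ends of the scale drawn at its ends. Pkm in microglia-like cells is 641 and 902 CPM in libraries 4 and 6 and 156 to 244 CPM in the others. Eno1 is highest in libraries 1 and 2 and P4ha1 in libraries 3 and 4 in all 5 panels.

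For a few members the classes agreed on the highest or the lowest libraries, though not on the whole order. The share of all genes with such agreement was not computed, so it is not read as particular to these members. Eno1 had its 2 highest levels in libraries 1 and 2 in 5 of 5 classes, for instance 144, 159.9, 71.8, 109, 60.4 and 64.8 CPM in microglia-like cells and 60.6, 67.7, 38.3, 33.8, 30.8 and 20.2 CPM in oligodendrocyte-like cells. Its near-identical copy Eno1b had at most 10.9 CPM in any of these classes and libraries. Reads that fit both genes equally well would be lost to both, so this level does not show how many Eno1 reads were lost. P4ha1 had its 2 highest levels in libraries 3 and 4 and its lowest in library 1 in 5 of 5 classes, for instance 44.7, 52.8, 165, 139.6, 73.7 and 63.1 CPM in oligodendrocyte-like cells. Egln1 was lowest in library 2 in 5 of 5, at 23.1, 16.7, 42.8, 52.6, 43.0 and 45.7 CPM in microglia-like cells. Ldha was highest in library 4 and Gpi1 in library 6 in 5 of 5. The kit differed by time in the labels, and the methods name a NovaSeq for 1 and 12 h and a HiSeq for 24 h, with 3 mice for the 6 libraries. Kit, sequencer, mouse and time cannot be told apart here.

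Among pericyte-like mural cells, 63 cells formed the subcluster with the highest mean level of Ccl7, Cxcl1, Mt1, Ccl11 and Cxcl2. They are here called response pericytes, with 29 cells in library 4 and 34 in library 6. They were compared with 740 other pericyte-like cells, of which 75 to 325 were in each library. The enzymes summed to 7346 CPM [7058 to 7643] in response pericytes and 3753 CPM [3677 to 3830.0] in the others, a ratio of 1.96 [1.87 to 2.05]. The others held 3831, 3589, 3508, 4376, 3791 and 3857 CPM in libraries 1 to 6, and response pericytes held 9417 CPM in library 4 and 5972 CPM in library 6, above all of them. Within the libraries the ratio was 2.15 [2.0 to 2.32] in library 4 and 1.55 [1.42 to 1.69] in library 6. The hypoxia response genes as a sum did not differ beyond counting error in the pool, with a ratio of 1.03 [0.895 to 1.19]. They were 1.47 [1.18 to 1.83] in library 4 and 0.877 [0.668 to 1.15] in library 6.

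Of 17 members with at least 50 CPM over both groups of pericytes, 5 were at least 2 times higher in response pericytes (Gapdh, Pgk1, Pkm, Ldha and Mif), against 7.10% of 3619 genes. None of the 17 was at least 2 times lower, against 14.9% of genes, and the median log2 difference was 0.33 over the members and -0.17 over all genes. Mif was at 886 and 222 CPM, 3.99 times higher [3.46 to 4.61], with 4.88 in library 4 and 2.73 in library 6. Gapdh was at 2683 and 746 CPM, 3.60 times [3.32 to 3.90], with 3.93 and 2.24, and Pgk1 at 401 and 114 CPM, 3.51 times [2.84 to 4.33], with 3.73 and 3.68. In the other pericyte-like cells Gapdh was at 582 to 987 CPM over the 6 libraries, highest in libraries 6 (987 CPM) and 4 (865 CPM), and Pgk1 at 96.0 to 130.2 CPM. Ldha was 2.06 times higher [1.75 to 2.40] and 1.68 times [1.17 to 2.40] within library 6, where it did not reach 2 times. On the scale of CPM plus 10, leaving out library 3, 4 or 5 brought Ldha to 1.88, 1.37 and 1.99 times, so that its call was lost, while Gapdh, Pgk1, Pkm and Mif stayed called without any 1 library. Hif1a passed 2 times on that scale without library 3 (2.10) or library 4 (2.26). The Ldha share of the lactate dehydrogenase pair was 86.6% [81.6 to 90.7] in response pericytes and 65.8% [63.0 to 68.6] in the others. The Epas1 share of the HIF pair was 67.7% [60.6 to 74.3] and 84.6% [82.7 to 86.4], with Hif1a 2.02 times higher [1.5 to 2.68] and Epas1 0.769 times as high [0.637 to 0.922].

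Among members below that level, Slc16a3 was at 111 CPM from 37 UMIs in response pericytes and 8.04 CPM in the others, 13.8 times higher [7.79 to 25.1]. It was 158 CPM in library 4 and 79.7 CPM in library 6, and 5.18 to 13.5 CPM in the other pericyte-like cells of the 6 libraries. Adm was 2.73 times higher [1.82 to 4.01] in the pool, with the difference in library 4 alone (225 and 25.9 CPM), with 34.9 and 42.3 CPM in library 6. P4ha1, at 0.568 times [0.406 to 0.775], and Ldhb, at 0.613 times [0.413 to 0.879], were lower, as was Epas1. Of the further pathway genes, 8 had at least 50 CPM over both groups. Slc2a1, at 255 and 34.2 CPM, passed only through response pericytes, so that its difference was fixed by the filter. Arnt (15 and 59.1 CPM) and Mxi1 (15 and 91.3 CPM) were lower, each on 5 UMIs in response pericytes. Both passed only through the other pericyte-like cells, so that their differences were fixed by the filter too. Arnt encodes the partner subunit of both HIF alpha proteins. Below 50 CPM, Hilpda was 7.32 times [4.99 to 10.7] and the collagen cross-linking gene Loxl2 5.88 times [3.89 to 8.85] higher. Loxl2 was 82.6 and 33.7 CPM in library 4, with an interval that included 1, and 169 and 15.4 CPM in library 6. Bhlhe40 was 2.81 times higher [1.59 to 4.78], with an interval that included 1 in library 6. In the other direction, Slc2a4 and Pdk2 had 0 UMIs in response pericytes, against 33 and 26.5 CPM in the others. Their pooled ratios were at most 0.343 and 0.428, but within library 4 or library 6 alone the intervals included 1.

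Other measures also differed between response pericytes and the other pericyte-like cells. Fibroblast markers summed to 1680.0 CPM in response pericytes, 225 CPM in library 4 and 2645 CPM in library 6, and to 213 to 272 CPM in the other pericyte-like cells by library, with 2 of the 6 markers at 0 in both groups. Pericyte markers summed to 11350.0 and 33873 CPM, with 0 of the 8 markers undetected in either group, and the median depth was 4709 and 3206 UMIs. Microglial markers were lower in response pericytes (41.9 and 132 CPM, with 4 of 8 at 0), and markers of monocyte-derived macrophages were at 32.9 and 16.1 CPM, with 5 of 8 at 0 in each group. Endothelial markers were at 246 and 168 CPM, with 6 of 8 at 0 in response pericytes and 0 of 8 in the others. In library 4 fibroblast markers were at 225 CPM against 272 CPM in the other pericyte-like cells, and the ratio of the enzymes was 2.15. In library 6 the markers were at 2645 against 223 CPM, and the ratio was 1.55. The part of fibroblast markers in the values of either library was not tested.

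**Figure D5:**
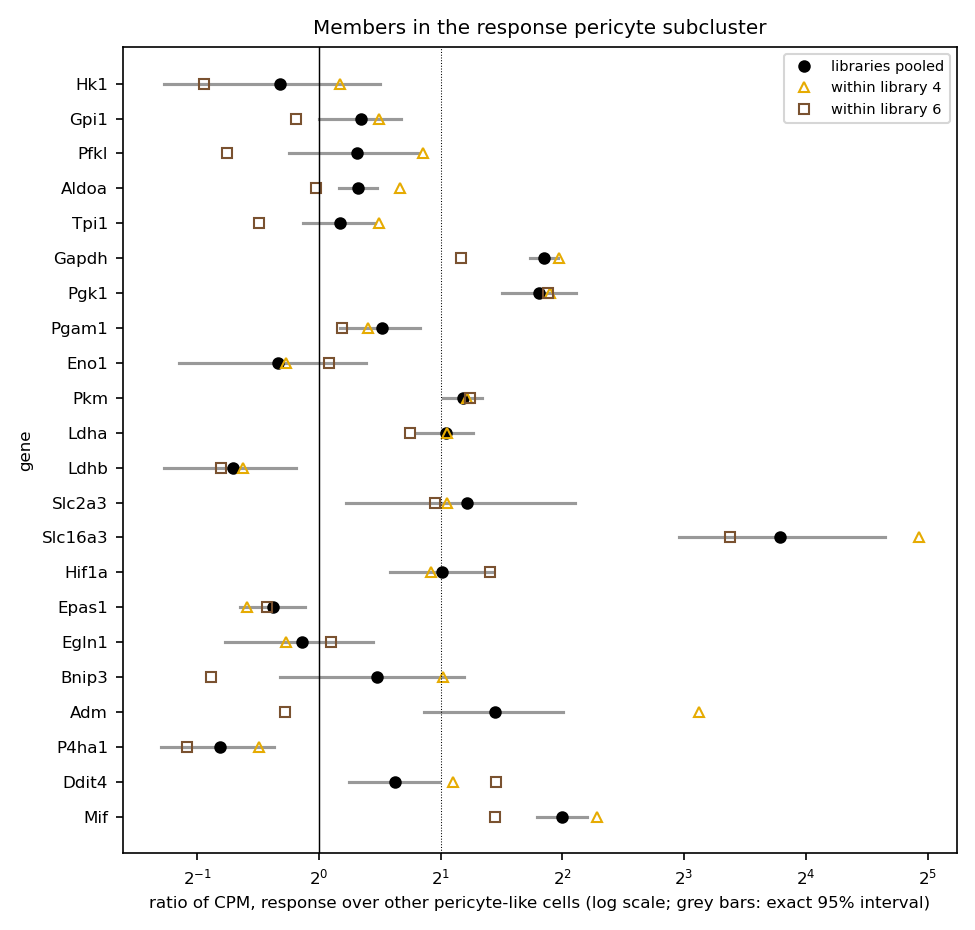
Ratio of CPM in response over other pericyte-like cells (horizontal axis, log scale) for the 22 members with at least 10 UMIs in both groups. Black points pool the libraries with grey exact 95% intervals, triangles are library 4 and squares library 6, and the dotted line marks 2 times. Slc16a3 (13.8), Mif (3.99), Gapdh (3.60) and Pgk1 (3.51) lie furthest right, while Adm is apart in library 4 (8.70) and library 6 (0.825).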

How the data were processed

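The authors deposited 1 matrix of UMI counts, whole numbers per gene and barcode from Cell Ranger 5.0.1 with mm10, all barcodes kept; by their methods its aggr step equalised depth between libraries, which may have thinned reads. No source used here ties a library number to a group, so libraries were not grouped.

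Here, cells were the barcodes whose total reached 0.1 times a reference depth, namely percentile 99 among the 3000 deepest, then those with at least 200 features and at most 10% mitochondrial UMIs. The study's filters alone left 19833 barcodes and served as an alternative. After the values were seen, 29 cells with over 10% hemoglobin UMIs were removed. Counts were log-normalised and clustered (2000 variable genes without the members, 30 components, 20 neighbours, Leiden at resolution 0.8) and clusters were named from 19 marker lists, with at least 3 markers raised. Doublets, scored against simulated pairs of cells as Scrublet does, were kept, except 2 clusters made mostly of doublets, which stayed unnamed (103 cells). UMIs of a class were summed to CPM with exact Poisson intervals, and ratios had exact conditional intervals. Folds for counts used a pseudocount of 10 CPM. The steps were tested on simulated data. Alternatives covered filters, scaling, resolution, libraries left out and genes left out of sums.

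Every member is named with its highest and lowest class, isozyme pairs and the widest ratios in full, and further pathway genes where they passed 2 times. The members and lists were chosen with earlier results of these data known. The work used Python 3.11.15 with matplotlib 3.10.9, leidenalg 0.10.2, igraph 0.11.9, pandas 2.3.3, scipy 1.17.1, scikit-learn 1.9.0 and numpy 2.4.6. Promoter windows came from RefSeq, and exons from GENCODE vM21.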

Additional observations from a re-analysis of the deposited data

How the results depend on the processing

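Of 135 alternatives to the 9 results below, 84 stayed within the interval of the reported value (for the count, within 1.5 times), 50 moved beyond it and 1 turned a ratio whose interval did not include 1. Settings within single libraries, single clusters alone or the hemoglobin-rich cells were chosen after seeing the data. With hemoglobin-rich cells kept, hemoglobin genes led clusters of 2010, 1907 and 52 cells, which then stayed unnamed. Markers of microglia had the next highest score in the first and last of these, and markers of endothelial cells in the second. These cells are therefore missing from the microglia-like and endothelial-like values of that setting. The summed enzymes in macrophage-like over microglia-like cells (2.52) were 2.68 by the mean over cells, 2.85 without mitochondrial, ribosomal protein and hemoglobin genes in the total, 2.66 at resolution 1.2, 2.26 without Gapdh, 2.37 with hemoglobin-rich cells kept, 1.47 in library 4, 1.95 in library 6 and 1.93 to 3.16 with 1 library left out. The hypoxia response genes in the same comparison (0.678) were 0.767 with the shorter total, 0.536 without Ndrg1 and Ddit4, 0.718 with hemoglobin-rich cells, 0.589 in library 4, 1.13 in library 6 and 0.542 to 0.783 with 1 library left out. The enzymes in response pericytes (1.96) were 2.12 with the shorter total, 1.55 without Gapdh, 2.15 in library 4, 1.55 in library 6 and 1.64 to 2.52 with 1 library left out. The hypoxia response genes there (1.03, with an interval that included 1) fell on either side of 1 and were 0.875 without Ndrg1 and Ddit4, 1.47 in library 4, 0.877 in library 6 and 0.724 to 1.47 with 1 library left out. The spread of the enzymes over libraries in microglia-like cells (2.10) was 1.92 by the mean over cells, 2.24 with the shorter total, 2.02 at resolution 1.2, 1.85 without Gapdh, 2.16 with hemoglobin-rich cells, 1.33 in the P2ry12-led clusters and 1.75 to 2.10 with 1 library left out. The spread of the hypoxia response genes in endothelial-like cells (1.87) was 1.75 with the shorter total, 1.71 without Ndrg1 and Ddit4, 1.66 with hemoglobin-rich cells, 1.70 in the largest cluster and 1.43 to 1.87 with 1 library left out. The endothelial-like Ldha share (95.3%) was 93.0% with the study's filters alone, 92.9% at resolution 0.4 and 94.9% to 95.8% with 1 library left out, and the Epas1 share (89.3%) was 86.2% with hemoglobin-rich cells and 88.2% to 90.3% with 1 library left out. The count of members at least 2 times higher in response pericytes (5) was 4 to 7 under its alternatives. Fewer or other cells and genes enter these settings, and the cause of each move was otherwise not tested. No paired analysis was possible because no result comes from a test and no library number is tied to a group. The labels give each group 1 library with no replicate number that groups share. The methods give 3 mice for both hemispheres at 1, 12 and 24 h, so the libraries of a time may share a mouse. With 63 response pericytes, members under 50 CPM rest on few UMIs there.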

Other observations

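Genes of the pathway list that were not members had their own class patterns. Vegfa, the angiogenic factor, was at 677 CPM in astrocyte-like and 321 CPM in macrophage-like cells and 3.61 CPM in endothelial-like cells. Hilpda, a lipid droplet gene, was at 992 CPM in macrophage-like and 419 CPM in neutrophil-like cells, and the mitophagy receptor gene Bnip3l at 685 CPM in oligodendrocyte-like cells. The lactate transporter gene Slc16a1 was at 271 CPM in endothelial-like cells, where Slc16a3 was at 7.56 CPM, while macrophage-like cells held 7.99 CPM of Slc16a1 and 264 CPM of Slc16a3. Car9, often used as a hypoxia marker, had 3 UMIs in macrophage-like and 1 UMI in endothelial-like cells.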
